A study of Rattus norvegicus with 6 samples.

Results

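The prostanoid receptors are the cell surface receptors of the prostaglandins and thromboxane. They were followed here through 7 rat genes: the 4 prostaglandin E2 receptors Ptger1 to Ptger4, the prostaglandin F receptor Ptgfr, the prostacyclin receptor Ptgir and the thromboxane receptor Tbxa2r. Members were all probe sets on the array whose single annotated gene symbol is one of these names. That gave 9 probe sets, of 31042 tested, for 6 of the 7 genes. Ptgir had no probe set with its symbol alone and was not analysed here.

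RNA came from the inner medulla, the deepest zone of the kidney, of male Sprague-Dawley rats, and was measured on 6 Affymetrix Rat 230 2.0 arrays. The digested tissue was divided into an inner medullary collecting duct (IMCD) fraction, enriched in cells of that segment, and the remaining cells of the supernatant (nonIMCD), with 3 arrays each. All groups share the loop diuretic furosemide, 1 mg into the peritoneum 30 min before death, and 75 min of digestion with collagenase B and hyaluronidase at 37 °C, so no untreated or undigested tissue stands beside them. IMCD replicate 1 is labelled 6 weeks of age and the other 5 arrays 10 weeks. The study used 7 rats in all for 3 isolations, described as 3 pairs of fractions, and no source used here says which arrays form a pair or which rats went onto which array. Arrays were therefore compared without pairing. The p-values measure the spread between arrays of the same fraction and take no account of the described pairs.

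Prostaglandin E2 is made in large amounts in the renal medulla, where it opposes the action of vasopressin on water transport and acts on sodium transport and on blood flow. Its receptors differ in the G protein they use. Ptger1 raises cell calcium, Ptger2 and Ptger4 raise cyclic AMP through the stimulatory G protein, and Ptger3 lowers cyclic AMP through the inhibitory G protein. Ptgfr and Tbxa2r act mainly through Gq and calcium. All are seven-pass membrane proteins.

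The receptors divided between the fractions. Ptger1 was higher in IMCD, 5.21-fold on the log2(intensity + 16) scale, and Ptger2, Ptger3 and Ptgfr were lower there. Ptger4 and Tbxa2r did not pass the threshold, an adjusted p under 0.05 in limma over all probe sets. The Ptger1 call rests on its bright probe set, and the dim one gave a log2 difference of 0.14 (limma, adjusted p = 0.892). The Ptgfr call was lost in 9 of 13 alternative settings. Counted by the brightest probe set of each gene, 1 of 6 receptors was higher and 3 were lower. Among all 14217 genes on the array 10.0% were higher and 15.7% were lower, so calls are common in this comparison. The median log2 difference, IMCD minus nonIMCD, was -1.35 over the 6 receptors and -0.09 over all genes. The receptor median lies midway between Ptgfr and Tbxa2r, which had 4 of 6 values each in the range of the negative controls described below, so its size is not exact. The arrays of the fractions did not overlap for 5 of the 6 receptors, against 48.7% of all genes. By probe set 1 of the 9 was higher and 4 were lower, against 8.58% and 13.4% of all probe sets.

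Levels are deposited intensities, which depend on each probe set's own sequence and cannot be ranked between genes. The array carries 3 probe sets for a bacterial tryptophan gene, used here as negative controls, whose 18 values ran from 1.55 to 78.4. A signal in that range was treated as indistinguishable from background, and 3 probe sets give only a rough limit. The highest value, 78.4, was on nonIMCD replicate 1, and the controls of the IMCD arrays reached 22.4, 45.2 and 45.8. The range is pooled over all arrays, so a value within it can lie above the controls of its own array. This holds for some values of Ptger2, Ptgfr and Tbxa2r. It also holds for some values of genes described below, such as Hpgd, Adcy2, Adcy5, Alox5, Alox15, Cd2 and Fstl3.

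**Figure D1:**
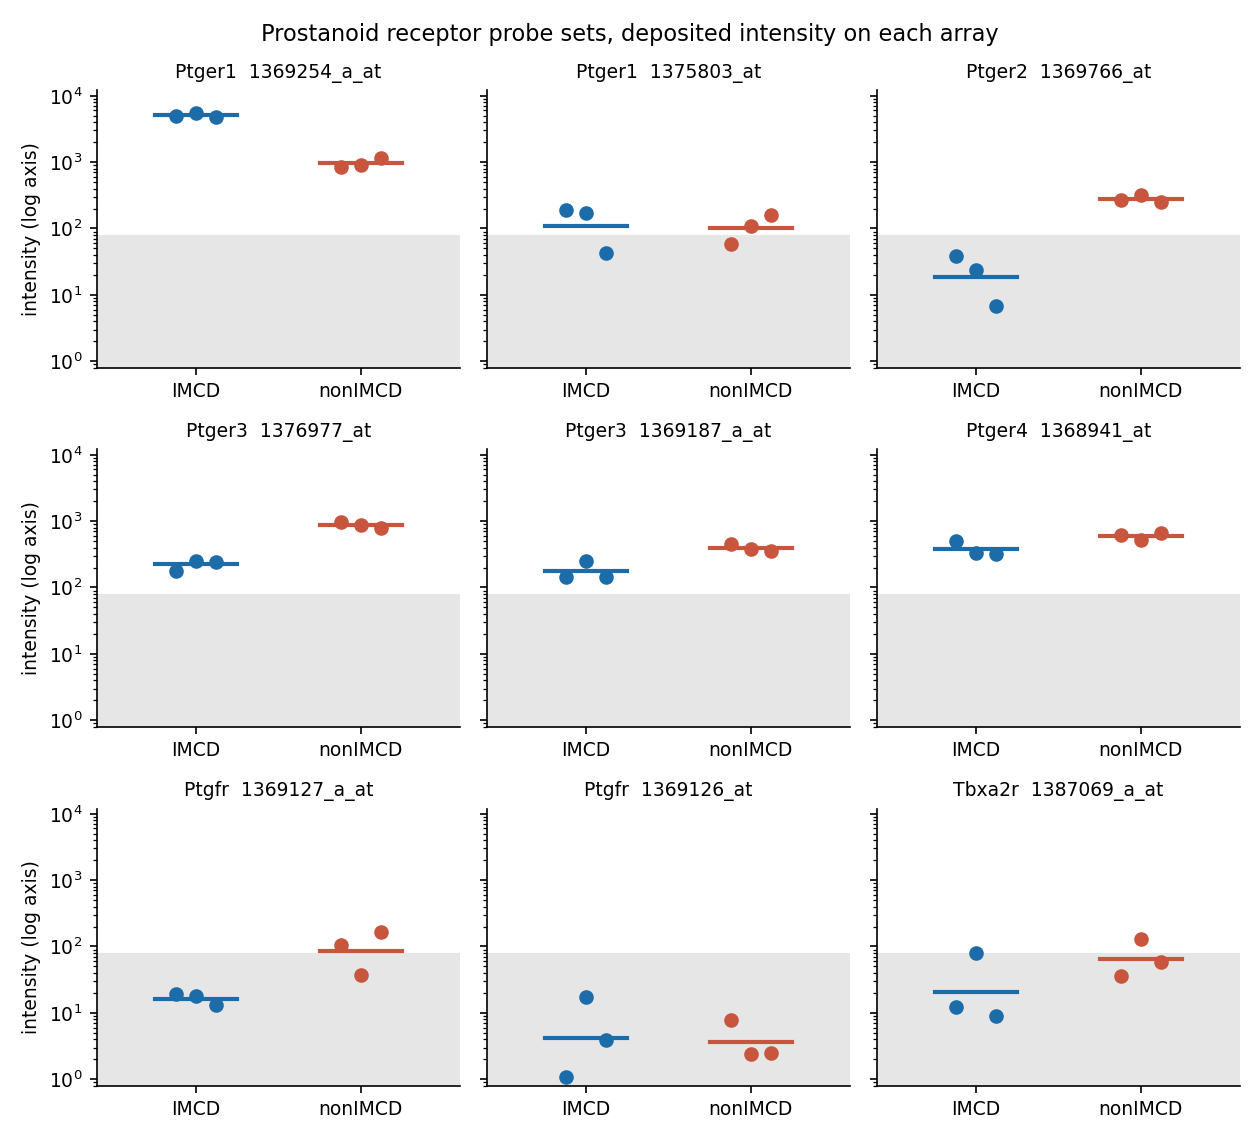
Deposited intensity (log axis) of each of the 9 receptor probe sets on the 3 IMCD arrays (blue) and the 3 nonIMCD arrays (red). Points are arrays, bars are geometric means, and the grey band reaches the highest negative control, 78.4. The first Ptger1 probe set is far brighter on all IMCD arrays (4836 to 5556) than on the nonIMCD arrays (856 to 1162), and Ptger2 lies in the grey band on the IMCD arrays.

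Ptger1 encodes EP1, the E2 receptor that raises cell calcium. Its brightest probe set, 1369254_a_at, whose suffix marks probes shared by alternative transcripts of 1 gene, read 4886, 5556 and 4836 on IMCD replicates 1, 2 and 3 and 856, 897 and 1162 on nonIMCD replicates 1, 2 and 3. Every IMCD array was above every nonIMCD array, with a wide gap. Across all genes 20.0% had their IMCD arrays wholly above. The means were 5093 ± 402 and 971 ± 166 (SD, n = 3). The log2 difference was 2.38 ± 0.16 (SE; limma, adjusted p = 0.000621), with a 95% interval of 1.98 to 2.79. A larger excess in IMCD was found for 0.302% of all genes.

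The other Ptger1 probe set, 1375803_at, was designed on an expressed sequence tag and was dim. It read 187, 170.4 and 42.7 in IMCD and 58.8, 111 and 160.4 in nonIMCD, and the fractions overlapped. The values 42.7 and 58.8 lay in the range of the negative controls. Its log2 difference was 0.14 ± 0.57 (SE; limma, adjusted p = 0.892), with a 95% interval of -1.27 to 1.55 that reaches neither the value of the bright probe set nor its lower bound. The 2 probe sets of this gene thus disagree, and the higher call rests on the bright one. Averaged over both before the fit, the log2 difference was 1.26 (adjusted p = 0.0365).

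In the RefSeq annotation of the GRCr8 assembly Ptger1 lies beside Gipc1. Gipc1, which encodes a PDZ adaptor protein and lies on the same strand, read 5374, 5546 and 4308 in IMCD and 1581, 1983 and 1489 in nonIMCD. It was also higher in IMCD, with a log2 difference of 1.58 ± 0.18 (SE; limma, adjusted p = 0.00264). Whether the neighbour has a part in the Ptger1 signal was not tested.

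The window before an annotated Ptger1 start is shown because it was the only receptor window with a GATA motif. The RefSeq promoter table (GRCr8) held all 7 receptor genes. For Ptger1, Ptger2, Ptger4, Ptgfr and Tbxa2r 0 of the 250 bases before the start lie outside the gene's annotated span, so the Ptger1 excerpts lie inside the annotated gene. The 250 bases before each start were searched on both strands for 5 short motifs. The core promoter element called the TATA box was searched as TATAAA. The CCAAT box was searched under the letters of its name. The site of Sp family factors, the GC box, was searched as GGGCGG. The short form of the cyclic AMP response element was searched as TGACG, and the motif of GATA factors as GATAA. No motif is contained in another. The 3 excerpts below lie on the minus strand at chr19:41378372-41378401, chr19:41378285-41378314 and chr19:41378447-41378476, and run in the direction of the gene with the match in capitals.
Ptger1 GATA motif, read on the opposite strand: gtgtttagatttTTATCcactttattaatg
Ptger1 CCAAT box: agggggtcacagaaaccaaaCCAATtcaga
Ptger1 GC box, read on the opposite strand: acacactcacccCCGCCCccctcacgggag
Of all 33469 windows of this length 23.5% hold the GATA motif, 34.0% the CCAAT box and 30.5% the GC box, so each match is common. A match describes letters in a window, and binding was not measured.

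Ptger2 encodes EP2, a receptor that raises cyclic AMP. Its only probe set, 1369766_at, read 39.0, 23.6 and 6.83 on the IMCD arrays and 273, 319 and 252 on the nonIMCD arrays. All 3 IMCD values lay within the range of the negative controls and all 3 nonIMCD values above it. The means were 23.2 ± 16.1 and 281 ± 34.1 (SD, n = 3). The fitted log2 difference was -3.01 ± 0.33 (SE; limma, adjusted p = 0.00259). Since IMCD was at background, the size of the fitted value depends on the pseudocount, and with 64 in place of 16 it was -1.999. Measured against the highest negative control, nonIMCD was at least 3.57-fold higher. This bound, like those below, takes the geometric mean of the nonIMCD arrays. Without single nonIMCD arrays it was 3.35 to 3.77-fold, a check added after the data were seen.

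Ptger3 encodes EP3, which lowers cyclic AMP and is best known in the kidney from the thick ascending limb and the collecting duct. Probe set 1376977_at, designed on an expressed sequence tag, read 176, 253 and 246 on the IMCD arrays and 962, 881 and 788 on the nonIMCD arrays. All 6 values were above the negative controls and the fractions did not overlap. The log2 difference was -1.90 ± 0.18 (SE; limma, adjusted p = 0.00164), with a 95% interval of -2.35 to -1.45.

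The other Ptger3 probe set, 1369187_a_at, is shared by alternative transcripts of the gene. It read 144, 254 and 145 in IMCD and 451, 375 and 355 in nonIMCD, again with no overlap. Its log2 difference was -1.10 ± 0.25 (SE; limma, adjusted p = 0.0281), with a 95% interval of -1.70 to -0.49. Both probe sets were lower in IMCD, but the call of this second one was lost with arrays centred on their medians (-0.81, adjusted p = 0.0632) or quantile-normalized (-0.80, adjusted p = 0.0722). It was also lost without any of IMCD replicates 1 and 3 and nonIMCD replicates 1, 2 and 3 (log2 differences -0.97, -0.97, -0.996, -1.12 and -1.16, adjusted p up to 0.0887), and with the replicate number as a block (-1.10, adjusted p = 0.0687). Ptger3 arrays stayed apart between the fractions on each probe set, as did 42.2% of all probe sets.

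The stretch before Ptger3 is printed because this gene had the most GC box matches of the receptors, 3 in 250 bases. The 153 bases outside the gene's own annotated span lie on the plus strand at chr2:249264832-249264984 (GRCr8, RefSeq), with 2 of the 3 matches in capitals, both on the opposite strand.
Ptger3 upstream: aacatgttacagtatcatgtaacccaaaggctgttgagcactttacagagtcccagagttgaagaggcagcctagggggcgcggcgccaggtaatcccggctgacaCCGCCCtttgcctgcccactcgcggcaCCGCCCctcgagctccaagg
The GC box occurred in the windows of Ptger1, Ptger3 and Ptgir, that is in 3 of 7 receptors. The windows of Ptger2, Ptger4, Ptgfr and Tbxa2r held none of the 5 motifs, and no receptor window held the TATA box (12.9% of all windows) or the short response element (18.2%).

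Ptger4 encodes EP4, the second E2 receptor that raises cyclic AMP. Probe set 1368941_at read 498, 330.4 and 318 on the IMCD arrays and 627, 523 and 663 on the nonIMCD arrays. The fractions did not overlap, as for 28.7% of all genes with IMCD wholly below, but IMCD replicate 1 came close to nonIMCD replicate 2. The log2 difference was -0.66 ± 0.21 (SE; limma, adjusted p = 0.0807), which missed the threshold. Its 95% interval was -1.19 to -0.13, so a difference of about the size of that of the second Ptger3 probe set lies inside it.

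Whether Ptger4 passed depended on the setting. It passed with dim probe sets left out (adjusted p = 0.0408), with an intensity trend in limma (adjusted p = 0.0376) and without IMCD replicate 1 (-0.86, adjusted p = 0.038), the array labelled 6 weeks. It did not pass under median centring (-0.37, adjusted p = 0.264).

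**Figure D2:**
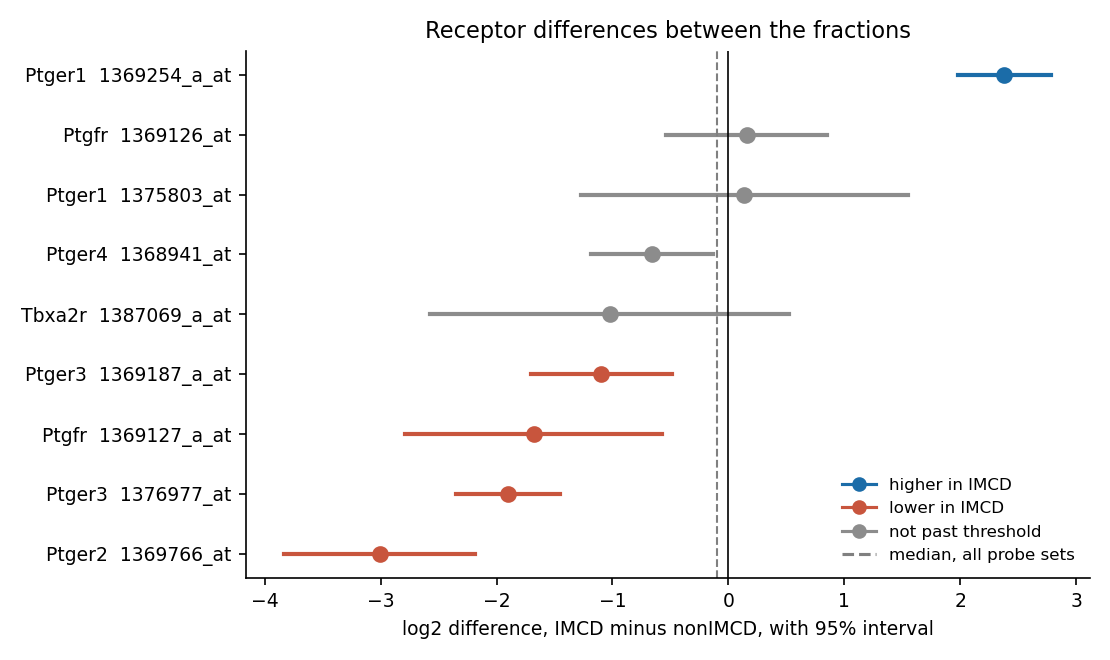
Log2 difference, IMCD minus nonIMCD, of the 9 receptor probe sets with 95% intervals from limma; colours give the call and the dashed line is the median of all probe sets, -0.10. Ptger1 1369254_a_at stands alone on the right at 2.38, and Ptger2, at background in IMCD, is drawn at its fitted -3.01.

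Ptgfr encodes the prostaglandin F receptor. Its brighter probe set, 1369127_a_at, read 19.3, 17.8 and 13.0 in IMCD and 105, 36.6 and 164 in nonIMCD. The IMCD values and 1 of the 3 nonIMCD values lay in the range of the negative controls, so no fold is given. The fitted log2 difference was -1.68 ± 0.45 (SE; limma, adjusted p = 0.0475), just past the threshold. That call was lost without any of 5 arrays (adjusted p 0.0872 to 0.131), all but nonIMCD replicate 2, under median centring (-1.39, adjusted p = 0.0709) and with the replicate number as a block (-1.68, adjusted p = 0.0911). The other probe set, 1369126_at, was in the range of the negative controls on all 6 arrays, from 1.08 to 17.2, and gave 0.16 (adjusted p = 0.742).

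Tbxa2r encodes the thromboxane receptor of platelets, smooth muscle and other cells. Probe set 1387069_a_at read 12.1, 79.1 and 8.90 in IMCD and 36.5, 129 and 58.1 in nonIMCD. The fractions overlapped, 4 of 6 values lay in the range of the negative controls, and the highest value of each fraction was on the array numbered 2. The log2 difference was -1.03 ± 0.63 (SE; limma, adjusted p = 0.307), with a 95% interval of -2.58 to 0.53. This missed the threshold, which does not show that the fractions were alike. IMCD was below nonIMCD at each array number, and with the number as a block the SE was 0.24 and the adjusted p 0.0736. The difference was -1.64 without IMCD replicate 2 (limma, adjusted p = 0.0795) and -0.62 without nonIMCD replicate 2 (limma, adjusted p = 0.576).

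Receptors outside the 7 genes were at background or not separable. The prostaglandin D2 receptor Ptgdr2, known from T helper cells and eosinophils, read 12.6 to 13.6 in IMCD and 6.54 to 20.1 in nonIMCD. Ptgdr, the other D2 receptor, has probe sets that carry a second gene symbol in the annotation and was not given a value.

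The cells in each fraction form the setting of these values. In bulk samples, fewer cells of a type and less RNA per cell cannot be told apart. Of 11 collecting duct principal cell markers 9 were higher in IMCD, against 10.0% of all genes, and 0 lower, with a summed intensity of 262968 to 280993 in IMCD and 134369 to 175786 in nonIMCD. The water channel Aqp2 and the urea transporter Slc14a2 did not pass (log2 differences 0.29 and 0.33), and Aqp2 still read 43299 ± 6559 in nonIMCD (SD, n = 3). Of 7 intercalated cell markers 3 were higher and 0 lower.

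Markers of other cell types are counted beside the 15.7% of all genes that were lower in IMCD. Lower markers numbered 10 of 10 for endothelium (sum 14477 to 18273 in IMCD, 70299 to 77004 in nonIMCD), 10 of 11 for macrophages and monocytes (1135 to 1388 against 72415 to 84908), and 3 of 4 for thin limbs (46747 to 52158 against 113257 to 148082). They numbered 3 of 7 for the thick ascending limb (4103 to 9029 against 16863 to 21341), 6 of 10 for smooth muscle and pericytes (2406 to 3368 against 4833 to 6176) and 5 of 10 for fibroblasts (4720 to 5318 against 34995 to 39378). For other leukocytes 6 of 8 were lower and 1, the B cell gene Cd79b, was higher (1312 to 1672 against 26234 to 29698), and for platelets 1 of 5 was lower, Pf4 (1278 to 1543 against 4122 to 5489). In IMCD the macrophage markers Aif1, Itgax and Mrc1, the T cell marker Cd3g, the thin limb marker Epha7, the platelet markers Gp9 and Gp5 and the fibroblast marker Lum lay in the range of the negative controls. Lum also lay in that range on the nonIMCD arrays, at 3.69, 70.2 and 8.33. None of these lists shows which cells carried the receptors. The part of these cells in the lower Ptger2, Ptger3 and Ptgfr was not tested.

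The 3' to 5' signal of control transcripts also moved with the fraction. No direct measure of RNA integrity was used here. The log2 ratio of 3' to 5' signal, averaged over the Actb, Gapdh and hexokinase controls, ran from 0.67 to 0.72 in IMCD and from 1.22 to 1.503 in nonIMCD. The median intensity was 269 to 272 in IMCD and 329 to 340.0 in nonIMCD. The part of either in the receptor differences was not tested.

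**Figure D3:**
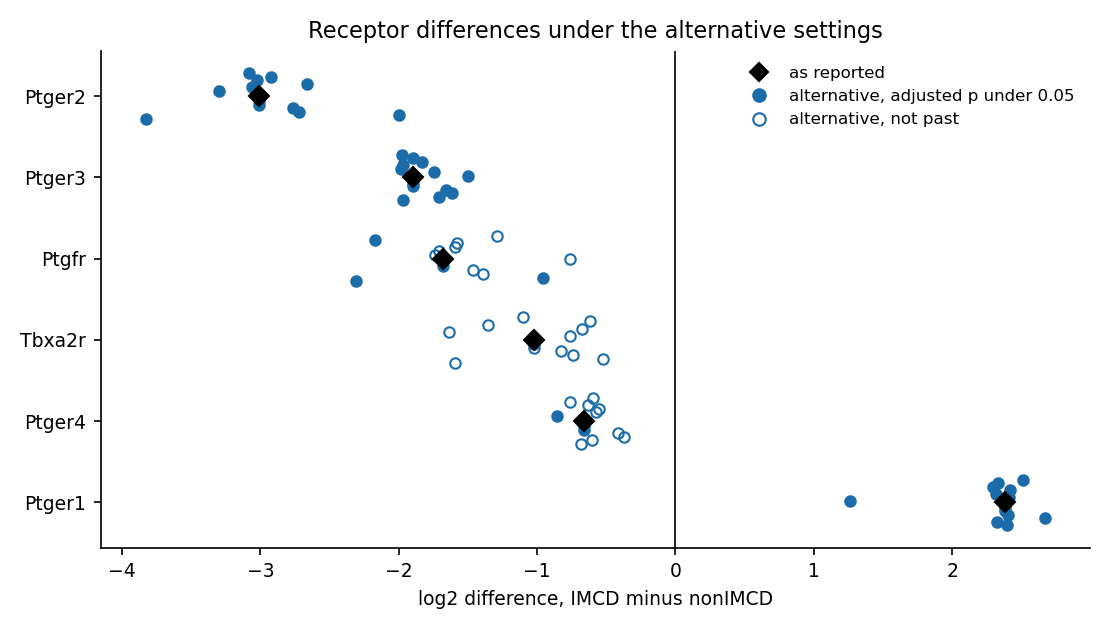
Log2 difference of the brightest probe set of each receptor as reported (black diamond) and under each alternative setting (circles, filled where the adjusted p was under 0.05). Ptger1 stays to the right of 0 and filled throughout, from 1.26 to 2.67, and Ptger2 and Ptger3 stay to the left and filled; Ptgfr and Ptger4 hold both kinds of circle.

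Ptger1, Ptger2 and Ptger3 kept their direction and their call in each of 14 alternative settings. Ptger1 ranged from 1.26 to 2.67 with an adjusted p up to 0.0365, Ptger2 from -3.83 to -1.999 with an adjusted p up to 0.0162, and Ptger3 from -1.99 to -1.50 with an adjusted p up to 0.0198. The smallest Ptger2 value came with a pseudocount of 64, which compresses dim signals. Receptor genes higher in IMCD numbered 1 in every setting, and those lower numbered 2 to 4.

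The profile of each receptor past the threshold was matched to 10877 named genes (10876 for a receptor that is itself among them) with a mean log2 value of at least 7 by the distance between log2 values over the 6 arrays, after each was centred on its own mean. Nearest to Ptger1 were the transcription factor En2 (distance 0.20), Nipal1, a magnesium transporter family member (0.26), and the annexin Anxa8 (0.28), with log2 differences of 2.51, 2.30 and 2.51. En2 read 3206 ± 108 in IMCD and 553 ± 87.4 in nonIMCD (SD, n = 3). Nearest to Ptger2 were the T cell adhesion gene Cd2 (0.41), the follistatin family gene Fstl3 (0.48) and Epb41l2 of the membrane skeleton (0.49). Cd2 and Fstl3 had mean log2 values of 5.71 each in IMCD and 8.50 and 8.53 in nonIMCD, so they met the limit only through nonIMCD. Like Ptger2 they were in the range of the negative controls on all 3 IMCD arrays, so that part of the likeness is between background signals. Nearest to Ptger3 were the transcription factor Tfap2b (0.24), the laminin chain Lama4 (0.25) and the lymphocyte GTPase Gimap6 (0.27). Lama4 also met the limit only through nonIMCD (mean log2 value 6.80 in IMCD and 8.71 in nonIMCD). For Ptgfr the nearest genes, Rnase4, Smim1 and Lysmd2, lay at 0.88 to 0.94. Ptger2 and Ptgfr are themselves dimmer than the limit of 7, and genes as dim as they are were not searched. The order is a description over 6 arrays with no test.

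The enzymes that make and remove the ligands also differed between the fractions. Of 29 measured genes of prostaglandin synthesis, transport and breakdown 7 were higher in IMCD, 9 were lower and 13 did not pass, with a median log2 difference of -0.003 against -0.09 for all genes. The list includes the lipoxygenases Alox5, Alox12 and Alox15, which make other lipid mediators and were each among the lower genes. Of all genes 10.0% were higher and 15.7% lower, 25.8% in either direction. The higher members included both cyclooxygenases, which make the common precursor of all prostanoids. Ptgs1 read 30375, 29157 and 30350 in IMCD and 9886, 7822 and 10607 in nonIMCD. Its log2 difference was 1.68 ± 0.16 (SE; limma, adjusted p = 0.0015). A dimmer Ptgs1 probe set gave 0.78 (adjusted p = 0.11).

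Ptgs2, the inducible cyclooxygenase, read 9582, 7366 and 6939 in IMCD and 2186, 1545 and 1391 in nonIMCD. It differed by 2.22 ± 0.23 (SE; limma, adjusted p = 0.00202). The microsomal prostaglandin E synthase Ptges, which makes the ligand of Ptger1 to Ptger4, differed by 2.25 ± 0.21 (SE; limma, adjusted p = 0.00149), and its other probe set by 2.29. In both cyclooxygenases and in Ptges every IMCD array was above every nonIMCD array, as in Ptger1 and in 20.0% of all genes. Other genes of this list had the same order, among them the reductase Ptgr1, and Ptges2, which did not pass.

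The 9 lower genes included those of ligand uptake, breakdown and other lipid mediators, while Ptgr1, a prostaglandin reductase of the breakdown route, was higher in IMCD (2.14, adjusted p = 0.000982). The prostaglandin transporter Slco2a1 read 522, 491 and 468 in IMCD and 7186, 5763 and 6261 in nonIMCD, a log2 difference of -3.65 ± 0.14 (SE; limma, adjusted p = 0.000204). The thromboxane synthase Tbxas1, which makes the ligand of Tbxa2r, differed by -3.11 ± 0.20 (SE; limma, adjusted p = 0.000526). The 15-hydroxyprostaglandin dehydrogenase Hpgd, which inactivates prostaglandins, was in the range of the negative controls on all IMCD arrays and at least 3.14-fold higher in nonIMCD (limma, adjusted p = 0.0486), a call lost without any 1 of the nonIMCD arrays (adjusted p 0.103 to 0.125). By its other probe set, also at background in IMCD, it was at least 2.06-fold higher (adjusted p = 0.00486). Without single nonIMCD arrays the bounds were 2.70 to 3.46-fold for the first Hpgd probe set and 1.78 to 2.25-fold for the other.

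The lipoxygenases Alox5 and Alox15, known from leukocytes, were at background in IMCD and at least 16.2-fold and 23.5-fold higher in nonIMCD. Alox15 read 17.9, 74.2 and 77.4 in IMCD, and the values 74.2 and 77.4 lay above the controls of their own arrays. The secreted phospholipase Pla2g2a was at least 4.21-fold higher there. Without single nonIMCD arrays this bound was 3.35 to 5.83-fold, and that of Alox5 was 15.3 to 16.8-fold. All 3 differences passed in limma (adjusted p = 0.000228, 0.0128 and 0.00208). The nonIMCD arrays were far apart for Alox15, at 528, 2857 and 4164. Its bound was 44.0-fold without nonIMCD replicate 1 and 15.7-fold without nonIMCD replicate 3, a check added after the data were seen. The macrophage and leukocyte markers given above moved with these genes, and their part was not tested.

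**Figure D4:**
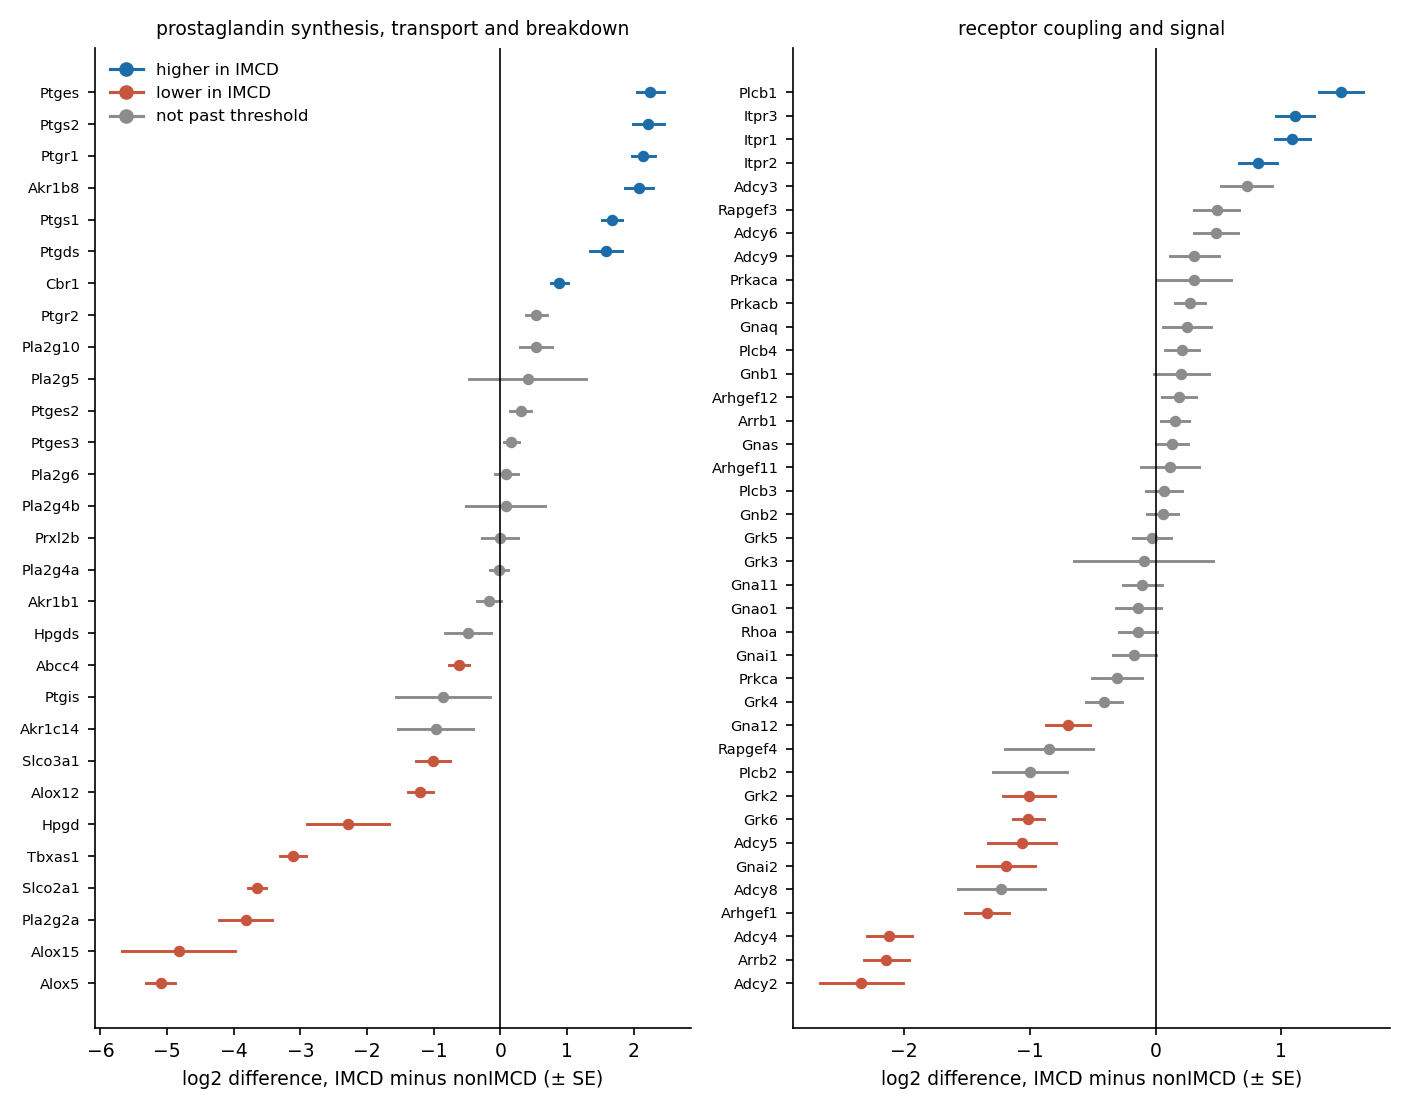
Log2 difference, IMCD minus nonIMCD, with standard error for the measured genes of prostaglandin synthesis, transport and breakdown (left, 29 genes, lipoxygenases among them) and of receptor coupling and signalling (right, 39 genes), each by its brightest probe set. Colours give the limma call. The highest differences are 2.25 for Ptges on the left and 1.47 for Plcb1 on the right. At the low end are Alox5, in the range of the negative controls on 3 of 3 IMCD arrays, and Adcy2, on 2 of 3. Both are drawn at fitted values whose size depends on the pseudocount.

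Among 39 measured genes that couple these receptors to their signals 4 were higher in IMCD, 9 were lower and 26 did not pass, with a median log2 difference of -0.03. The higher share of 10.3% is close to the 10.0% of all genes, and the lower share was 23.1% against 15.7%. By brightest probe set the 4 higher genes were Plcb1 and the 3 IP3 receptors. The phospholipase Plcb1, which makes the messenger IP3, read 1834, 2260 and 1767 in IMCD and 695, 590.2 and 797 in nonIMCD, a log2 difference of 1.47 ± 0.17 (SE; limma, adjusted p = 0.00319). The IP3 receptors, which release calcium from stores, were higher in 3 of 3 cases: Itpr3 by 1.11, Itpr1 by 1.09 and Itpr2 by 0.81. The other 3 phospholipases of this family did not pass in their brightest probe sets, Plcb2 with -1.001 (adjusted p = 0.0604). The G protein subunits Gnaq and Gna11 did not pass either, with 0.25 and -0.10.

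Of the adenylyl cyclases, which make cyclic AMP, 3 of 7 were lower and 0 higher in their brightest probe sets, against 15.7% and 10.0% of all genes. Adcy4 differed by -2.12 ± 0.18 (SE; limma, adjusted p = 0.00114). Adcy2 read 65.2, 57.6 and 139 in IMCD, 2 of them in the range of the negative controls, and 541, 379 and 534 in nonIMCD (limma, adjusted p = 0.00565). Adcy5, at background in IMCD, was at least 1.4-fold higher in nonIMCD (limma, adjusted p = 0.0417), a call lost without any 1 of the nonIMCD arrays (adjusted p 0.0641 to 0.107). Its bound was then 1.21 to 1.57-fold. Adcy6, the main cyclase of vasopressin action in the collecting duct, gave 0.48 (adjusted p = 0.105), and its dimmer probe set was higher (1.08, adjusted p = 0.00676). The catalytic kinase subunit Prkacb, which cyclic AMP releases, gave 0.27 (adjusted p = 0.16) in its brightest probe set and was higher in both others (1.31 and 0.54, adjusted p = 0.0216 and 0.0499). The stimulatory subunit Gnas gave 0.13 (adjusted p = 0.509). The inhibitory subunit Gnai2, through which Ptger3 can act, was lower, with 2399, 2279 and 2076 in IMCD and 5126, 6872 and 3884 in nonIMCD and a log2 difference of -1.19 ± 0.23 (SE; limma, adjusted p = 0.017). Gnai1 gave -0.17 (adjusted p = 0.531).

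Genes that switch receptors off, the arrestins and receptor kinases, were lower in 3 of 7 cases and higher in 0, against 15.7% and 10.0% of all genes. Arrb2 differed by -2.14 ± 0.18 (SE; limma, adjusted p = 0.00114), while Arrb1 gave 0.15 (adjusted p = 0.391). The kinases Grk6 and Grk2 differed by -1.01 each.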

How the data were processed

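Total RNA was labelled with biotin as cRNA and hybridised to 6 arrays, about 3 µg per array per the labels. The deposited intensity values are linear, 1 per probe set and array, and had been scaled by the authors to a common trimmed mean; no source used here names the software. Symbols came from the platform annotation of the array, updated by gene identifier through RefSeq (GRCr8). The 57 control probe sets were left out and 31042 were tested, without a filter on low values. Intensities were analysed as log2(value + 16), which understates differences of dim signals, with moderated linear models (limma 3.58.1, R 4.3.3) without covariates, two-sided, on the 6 arrays together. The Benjamini-Hochberg adjustment ran over the 31042 probe sets. The procedure was tested on simulated data with known changes in bright probe sets only, so the test does not cover dim ones such as Ptger2, Ptgfr and Tbxa2r. A gene with several probe sets is counted by the brightest (mean log2 value over the 6 arrays).

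Members, gene lists and markers were chosen with earlier results of these data known. Named genes were all members with their nearest profiles, up to 6 genes per pathway list with the largest differences past the threshold, Ptgdr, Ptgdr2, Ptgs1 and Ptgs2, and up to 2 per marker list. Other pathway genes, the neighbours of Ptger1, and further markers (such as Aqp2 and Cd79b) were named after their values were seen. Alternatives were pseudocounts of 1 and 64, median centring, quantile normalization, leaving out 8668 dim probe sets (mean log2 value under 7 in both fractions), an intensity trend, the replicate number as a block, averaging the probe sets of a gene, and leaving out each array. The number of arrays limits the precision.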

Additional observations from a re-analysis of the deposited data

How the results depend on the processing

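Median centring and quantile normalization moved the median difference of all probe sets up by 0.29 and 0.15. Under median centring 5389 probe sets were higher and 2652 lower, against 2663 and 4163 as reported. Ptgfr lost its call under median centring (-1.39, adjusted p = 0.0709), quantile normalization (-1.46, adjusted p = 0.0703) and averaging of its probe sets (-0.76, adjusted p = 0.0946), and without single arrays it ranged from -2.18 to -1.29. Ptger4 gained a call with dim probe sets left out (-0.66, adjusted p = 0.0408) and with an intensity trend (-0.66, adjusted p = 0.0376), and ranged from -0.86 to -0.55 without single arrays. Without single arrays, 1537 to 2248 probe sets were higher and 2647 to 3221 lower; fewer arrays enter these fits. The dim Ptger1 probe set 1375803_at turned to -0.18 and -0.12 without IMCD replicates 1 and 2 and to -0.19 without nonIMCD replicate 1 (range without single arrays -0.19 to 0.71), and the dim Ptgfr probe set 1369126_at to -0.13 without IMCD replicate 2 (range -0.13 to 0.35). Other causes were not tested. Tbxa2r and Ptgfr could not be fitted with dim probe sets left out. Signal near background limits Ptger2, Ptgfr, Tbxa2r and the dim Ptger1 probe set.

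Same-numbered arrays of the fractions had correlations of deviations of 0.04, 0.04 and 0.06, too low to pair them by their values, although each array correlated best with its own number. The study describes 3 pairs without saying that the numbers mark them, and the arrays numbered 1 carry different ages. With the replicate block Ptger1, Ptger2 and Ptger3 kept their calls (adjusted p = 0.013, 0.0162 and 0.0198), Ptgfr had -1.68 (adjusted p = 0.0911), the second Ptger3 probe set -1.10 (adjusted p = 0.0687), Tbxa2r -1.03 (adjusted p = 0.0736), and 1831 probe sets were higher and 2993 lower.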
